A study of Mus musculus with 31 samples.

Results

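The 10 genes Pou5f1, Sox2, Nanog, Klf4, Klf5, Klf17, Cdx2, Tead4, Tfap2c and Carm1 were followed across 31 individual 2-cell mouse embryos, as 10 of the 20544 gene rows of the deposited count table. They were chosen by name, as transcription factors of pluripotency and of the first lineage decisions together with Carm1. The rule that lists them uses no measured value, but earlier results of these data were known when they were chosen. The RNA-seq experiment asked how a treatment of sperm before in vitro fertilization bears on gene expression of the embryo. In this treatment, sperm energy restriction and recovery (SER), sperm of C57BL/6J males aged 12 to 14 weeks were held without glucose and pyruvate until they stopped moving, after 15 to 45 min, and were then given both again. Control sperm had these substrates throughout, and one cauda epididymis of a male went into each medium. Oocytes came from superovulated CD1 females of 8 to 10 weeks, were cocultured with the sperm for 4 h, and the embryos, all of them WT, were collected at 32 h post-insemination. The groups held 16 control-generated and 15 SER-generated embryos, each sequenced as a library of its own, so that both blastomeres of an embryo were measured together.

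Pou5f1 (OCT4), Sox2 and Nanog form the core of the transcription factor network that keeps cells of the inner cell mass and embryonic stem cells pluripotent. The Krüppel-like factors Klf4 and Klf5 feed into that network, and all Krüppel-like factors carry zinc fingers that bind GC-rich and CACCC elements. Tead4 is the DNA-binding partner of Yap1 in the Hippo pathway and acts upstream of Cdx2, which specifies the trophectoderm, the outer layer that will form the placenta. Tfap2c binds many early embryonic enhancers, and Carm1 methylates arginines of histone H3 and differs between blastomeres of the early embryo. At the 2-cell stage the embryo still carries transcripts deposited by the oocyte while its own genome is being switched on, and a transcript of either origin is counted alike.

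RefSeq promoter sequences, 250 bases before to 50 bases after a transcription start on GRCm38.p6, were matched for 6 of the 10 genes. The windows of Klf17 and Sox2 are shown because these genes had the smallest p when the embryos of both sperm treatments were compared. Capitals mark the GC box, with the letters GGGCGG, on either strand. They also mark the CACCC box, which was searched as CCACCC on either strand, and overlapping matches of one motif run together.
Klf17 promoter, chr4:117765617-117765916, minus strand: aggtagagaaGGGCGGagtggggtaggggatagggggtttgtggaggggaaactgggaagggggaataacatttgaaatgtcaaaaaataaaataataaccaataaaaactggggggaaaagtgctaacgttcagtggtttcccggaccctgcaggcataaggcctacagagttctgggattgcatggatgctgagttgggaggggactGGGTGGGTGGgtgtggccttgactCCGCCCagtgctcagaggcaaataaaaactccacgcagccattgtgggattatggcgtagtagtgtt
Sox2 promoter, chr3:34649745-34650044, plus strand: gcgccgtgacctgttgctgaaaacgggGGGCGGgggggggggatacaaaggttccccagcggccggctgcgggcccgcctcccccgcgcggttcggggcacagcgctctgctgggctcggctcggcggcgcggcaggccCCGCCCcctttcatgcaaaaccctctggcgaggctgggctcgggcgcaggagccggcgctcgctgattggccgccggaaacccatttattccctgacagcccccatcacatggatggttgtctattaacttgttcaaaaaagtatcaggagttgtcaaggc

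The Klf17 window held 2 GC boxes and 2 CACCC boxes, and the Sox2 window held 2 GC boxes and 0 CACCC boxes. Of 32851 RefSeq promoters of the same length, 35.7% held a GC box and 31.5% a CACCC box. The letters TATAAA, found in 13.6% of them, were in neither window. On GRCm38, Klf17 spans chromosome 4 bases 117757836 to 117765648 (minus strand), so its annotated start falls inside the window shown. Sox2 spans chromosome 3 bases 34650405 to 34652461 (plus strand), and this GENCODE gene begins downstream of the RefSeq window.

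The libraries held 532945 to 2085222 counts in control- and 642321 to 3088396 counts in SER-generated embryos, with medians of 955806 and 1375557. Between 10455 and 13220 genes were detected per embryo, and 3 counts, taken as the floor of detection, corresponded to 0.971 to 5.63 CPM, the count of a gene scaled to one common library total. Oocyte and zygotic transcripts were described by 2 lists of markers, over all embryos, which does not show the stage of a single embryo. Of 25 oocyte transcripts 23 passed the filter on low counts, and of 27 genes of zygotic activation 20 passed, among them Zscan4c and Zscan4d. Cumulus cell markers summed to between 0.984 and 209 CPM, with control replicate 5 at 209 CPM and the others at or below 26.4 CPM, and sperm markers summed to at most 30.9 CPM. The ratio of the summed zygotic to the summed maternal list, on the log2 scale, had a median of -4.22 in control- (-7.69 to -3.09) and -3.34 in SER-generated embryos (-5.74 to -2.38). The maternal list had a median of 20859 CPM in control- against 16123 CPM in SER-generated embryos, and the zygotic list 1131 and 1328 CPM.

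Control replicate 4 and SER replicate 15 stood apart from the other embryos over the genes that passed the filter, 8 of the 10 among them. The median correlation of an embryo with the others was 0.443 for control replicate 4, 0.397 for SER replicate 15 and 0.525 for control replicate 3, against 0.616 to 0.811 for the rest. Control replicate 4 and SER replicate 15 also had the lowest ratios, -7.69 and -5.74, with 204 and 466 CPM of the zygotic list. The group comparison is therefore given with and without these 3 embryos, a choice made after seeing the data.

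Among the 10 genes, Klf17 had the highest level and Cdx2 the lowest. Levels were compared between genes as CPM per kb of exon, since longer transcripts give more internal reads. The counts also hold reads of the 5′ end, for which this scaling may correct long transcripts too far. The medians over the 31 embryos were 508 CPM per kb for Klf17, 191 for Pou5f1, 36.9 for Tfap2c, 22.6 for Klf4, 19.4 for Tead4, 13.8 for Klf5, 10.0 for Sox2, 5.38 for Carm1, 0.289 for Nanog and 0 for Cdx2. Klf17 lay above Pou5f1 in 27 of 31 embryos, Pou5f1 above Tfap2c in 31 and Tfap2c above Klf4 in 26. The neighbors Klf4 and Tead4 stood in this order in 17 of 31 embryos, and Tead4 and Klf5, Klf5 and Sox2, and Sox2 and Carm1 in 20 each, so the middle of the order was not kept from embryo to embryo. The middle of the order also depended on the scaling to exon length. By median CPM without it, Klf5 (71.9) lay above Tead4 (69.9) and Klf4 (68.9), and Carm1 (26.1) above Sox2 (20.7). By total counts over the 31 embryos, the span ran from 53510 reads of Klf17 and 21899 of Pou5f1 to 66 of Nanog and 47 of Cdx2.

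**Figure D1:**
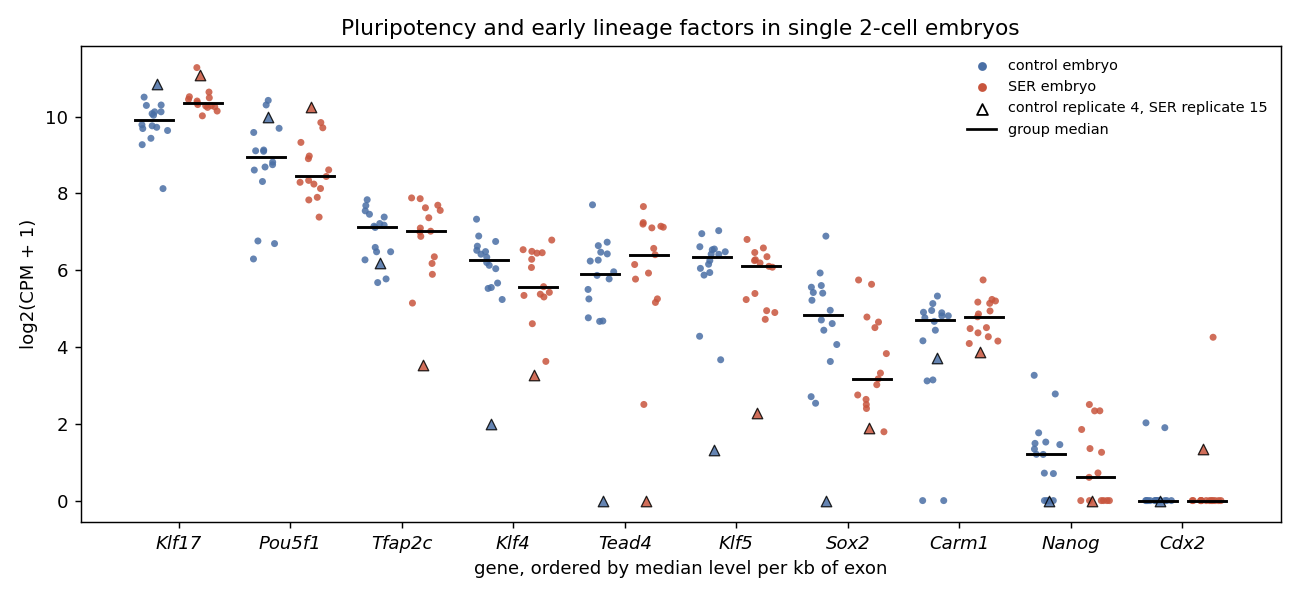
Level of each of the 10 genes in every embryo as log2(CPM + 1), with genes ordered by their median CPM per kb of exon. Points are embryos (16 control in blue, 15 SER in red), bars are group medians and triangles are control replicate 4 and SER replicate 15, which lie low for Tead4, Klf4 and Klf5 and high for Klf17 and Pou5f1.

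The comparison of SER and control asked whether any of these factors differed between embryos of treated and untreated sperm. By the quasi-likelihood test of edgeR, adjusted over 8571 genes after Benjamini and Hochberg, none of the 8 of the 10 genes that passed the filter reached an adjusted p under 0.1, against 0% of all genes tested, of which 491 had an unadjusted p under 0.05. Nanog and Cdx2 did not pass the filter and were read from a wider fit of 17803 genes, all those counted in any embryo, where 2.83% of genes were called and neither of them was. Of the 8 genes, 4 were estimated higher in SER and 4 lower, and their median log2 fold change was -0.12 against 0.02 for all tested genes. The lowest unadjusted p among the 10 belonged to Klf17, higher in SER, and to Sox2, lower in SER. A second test, limma voom with sample quality weights, called 9.89% of all genes and 2 of the 8 genes, namely Klf17 and Sox2. DESeq2 called 0.572% of all genes and 0 of the 8. The batch of an embryo is not in the labels, so none of these tests corrects for batch, as the study did before its own test.

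Klf17, a zinc finger factor of the Krüppel-like family whose transcript is abundant in oocytes and early embryos, ran from 278 to 1830 CPM in control-generated embryos with a median of 965 CPM. In SER-generated embryos it ran from 1037 to 2478 CPM with a median of 1313 CPM. All 15 SER-generated embryos exceeded the control median and 2 of the 16 control-generated embryos lay above the SER median, although the ranges overlapped. The lowest value, 278 CPM, was that of control replicate 3, while the 2 control-generated embryos above the SER median were control replicate 4 with 1830 CPM and control replicate 8 with 1453 CPM. The means were 996 ± 361 CPM (SD, n = 16) and 1435 ± 387 CPM (SD, n = 15). The log2 fold change was 0.50 (SE 0.20, 95% interval 0.10 to 0.90), with p = 0.0149 and an adjusted p of 0.731 by edgeR, so the difference did not pass the threshold. Without the 3 embryos of low correlation it was 0.47 (edgeR, adjusted p = 0.568), and limma voom gave 0.60 (adjusted p = 0.0168). With each embryo left out in turn, the edgeR estimate stayed between 0.42 and 0.60.

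The voom weights ran from 0.0863 for SER replicate 15 to 6.14 for control replicate 6, so embryos entered this test with unequal weight. A CPM is a share of the counted RNA of an embryo, so more of a transcript and less of all other RNA cannot be told apart. Library size moved with the groups as well, and with log2 library size as a covariate the edgeR estimate of Klf17 was 0.42 (adjusted p = 0.875). The share of the maternal list was lower in SER-generated embryos, as given above, and its part in the result was not tested.

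Sox2, the partner of OCT4 on composite DNA elements, ran from 0 to 117 CPM in control-generated embryos with a median of 27.5 CPM. In SER-generated embryos it ran from 2.46 to 52.6 CPM with a median of 8.00 CPM. Of the 16 control-generated embryos 13 lay above the SER median, and of the 15 SER-generated embryos 2 exceeded the control median, yet the lowest value of all, 0 counts, was that of control replicate 4. The 2 SER-generated embryos over the control median were SER replicate 13 with 52.6 CPM and SER replicate 11 with 48.6 CPM. The means were 32.9 ± 28.4 CPM (SD, n = 16) and 15.7 ± 16.2 CPM (SD, n = 15), so the SD was near the mean in both groups. Its log2 fold change was -1.07 (SE 0.49, 95% interval -2.07 to -0.06), with p = 0.0362 and an adjusted p of 0.811 by edgeR. Without the 3 embryos of low correlation it was -1.10 (edgeR, adjusted p = 0.650), and limma voom gave -1.60 (adjusted p = 0.0281). Control replicate 14, with the highest value of 117 CPM, held part of the difference, since without it the edgeR estimate was -0.79.

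Pou5f1, which encodes OCT4, ran from 77.4 to 1370 CPM (median 498) in control- and from 166 to 1218 CPM (median 346) in SER-generated embryos. The groups overlapped over nearly their whole ranges, and 3 control-generated embryos, replicates 1, 2 and 3, lay below every SER-generated embryo with 77.4, 107 and 102 CPM. For Pou5f1 the log2 fold change was -0.27 (SE 0.34, 95% interval -0.96 to 0.42, edgeR, adjusted p = 0.967). The estimate was -0.13 without control replicate 14 and -0.46 without SER replicate 15. Of the 2248 exon bases of Pou5f1, 317 overlap Gm19553 on the opposite strand, and the strand setting of the counting was not given, so reads of the 2 genes cannot be told apart there.

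Nanog was close to the limit of detection. It had at least 1 count in 11 control- and in 8 SER-generated embryos, and at least 3 counts in 3 and 5 of them. With every library thinned to 532945 counts, 6 control- and 5 SER-generated embryos kept a count. The highest value was 14 counts in control replicate 1, 8.59 CPM. The log2 fold change was -0.53 (SE 0.83, 95% interval -2.23 to 1.17, adjusted p = 0.880 by edgeR over all genes with a count). Differences in either direction within this interval could not be told from no difference at this depth. Without control replicate 1 the estimate was -0.039.

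Klf4 and Klf5, Krüppel-like factors of the pluripotency network, did not pass the test either. Klf4 ran from 3.02 to 160 CPM (median 76.2) in control- and from 8.57 to 109 CPM (median 46.5) in SER-generated embryos. Its lowest values in each group were those of control replicate 4 and SER replicate 15, and 6 of the 15 SER-generated embryos exceeded the control median. The log2 fold change of Klf4 was -0.43 (SE 0.34, 95% interval -1.12 to 0.26, edgeR, adjusted p = 0.935). Klf5 ran from 1.51 to 130 CPM (median 79.7) in control- and from 3.89 to 110 CPM (median 67.6) in SER-generated embryos, again with control replicate 4 and SER replicate 15 as the lowest. Its log2 fold change was -0.27 (SE 0.35, 95% interval -0.98 to 0.44, edgeR, adjusted p = 0.968). Leaving out SER replicate 15 gave -0.17.

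Tead4, the Hippo pathway factor upstream of Cdx2, had 0 counts in control replicate 4 and in SER replicate 15 and 3 counts in SER replicate 8, whereas each of the other 28 embryos had 13 counts or more. It reached 207 CPM in control- (median 59.2) and 201 CPM in SER-generated embryos (median 83.6). For Tead4 the log2 fold change was 0.41 (SE 0.47, 95% interval -0.55 to 1.36, edgeR, adjusted p = 0.961). It was 0.26 without SER replicate 7 and 0.64 without control replicate 2. For SER replicate 15, with 2567720 counts, a count of 0 allows at most 1.17 CPM, and for control replicate 4, with 662768 counts, at most 4.53 CPM, a limit that covers counting error only.

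Cdx2, the trophectoderm factor, was read in 4 of 31 embryos. Control replicates 5 and 9 had 2 counts each, SER replicate 15 had 4, and SER replicate 14 had 39, or 18.1 CPM. The estimate of 1.83 for its log2 fold change (SE 1.03, adjusted p = 0.541 by edgeR over all genes with a count) rested on that embryo, and without SER replicate 14 it was -0.85. The transcript was thus at 0 in 27 embryos, while Tead4 was counted in 29.

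Tfap2c ran from 50.2 to 227 CPM (median 139) in control- and from 10.5 to 235 CPM (median 128) in SER-generated embryos. The lowest value was that of SER replicate 15, and the next lowest SER-generated embryo had 34.4 CPM. Its log2 fold change was 0.03 (SE 0.29, 95% interval -0.56 to 0.62, edgeR, adjusted p = 0.995), the estimate closest to 0 among the 10.

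Carm1, the histone arginine methyltransferase, had 0 counts in control replicates 1 and 3 and between 14 and 94 counts in each of the 15 SER-generated embryos. It ran up to 39.1 CPM in control- (median 25.3) and from 13.6 to 52.6 CPM in SER-generated embryos (median 26.6), so the medians differed little. Its log2 fold change was 0.38 (SE 0.40, 95% interval -0.43 to 1.19, edgeR, adjusted p = 0.958), and without control replicate 3 it was 0.28. Carm1 shares 1025 of its 4852 exon bases with Yipf2 on the opposite strand, and Yipf2 had 338 reads in all against 970 of Carm1.

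**Figure D2:**
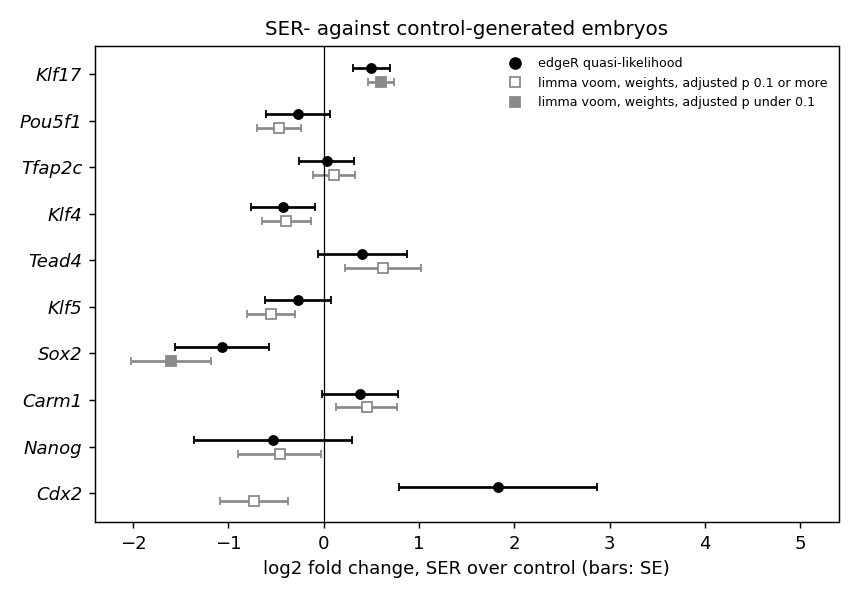
Log2 fold change of each of the 10 genes, SER- over control-generated embryos, with bars of 1 SE, by edgeR (black) and by limma voom with sample quality weights (gray). Filled squares mark an adjusted p under 0.1, reached by Klf17 and Sox2 with voom, and no edgeR estimate reached it.

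Spread between embryos was described as the SD of log2 CPM within a group. It was smaller in SER-generated embryos for 6 of the 8 genes that passed the filter, against 54.2% of all 8571 genes. The clearest case was Carm1, with an SD of 1.47 in control- and 0.45 in SER-generated embryos, followed by Pou5f1 with 1.19 and 0.84. Klf17 had the smallest SD within SER, 0.37, against 0.60 in control, and its SD over all embryos ranked at percentile 7.64 of all genes. Tead4 (1.57 and 1.92) and Tfap2c (0.59 and 1.15) were the 2 genes with a larger SD in SER-generated embryos, and Tead4 ranked at percentile 95.3. Without control replicates 3 and 4 and SER replicate 15, the SD was smaller in SER for 3 of the 8, Pou5f1, Klf17 and Carm1, against 50.6% of all genes. Carm1 then had 1.23 in control- and 0.42 in SER-generated embryos, with 1 of its 2 embryos at 0, control replicate 1, still included. A group SD is a description here, with no test of the difference.

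**Figure D3:**
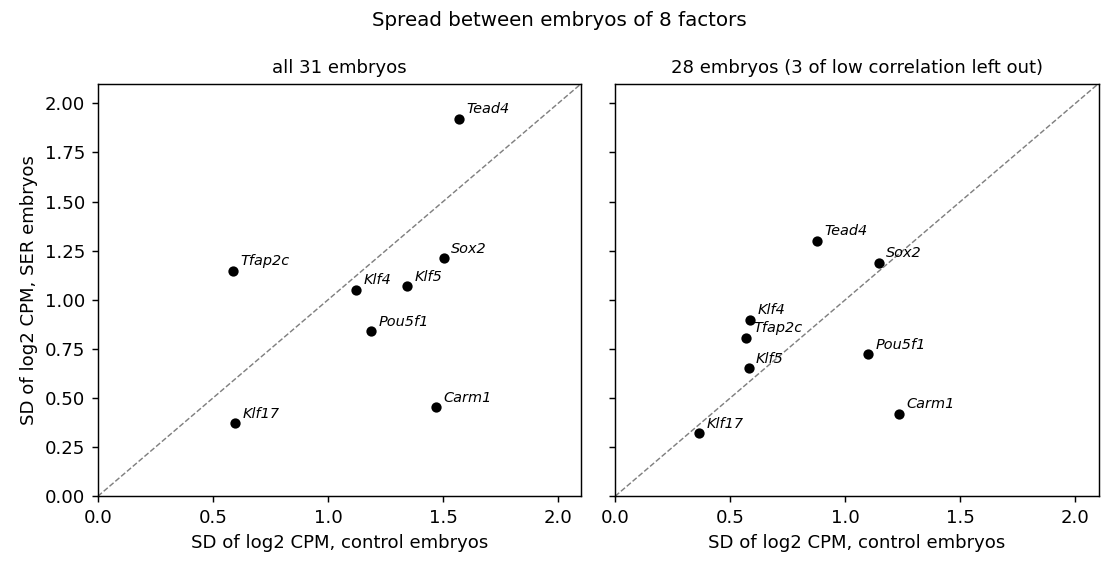
SD of log2 CPM in control-generated embryos (x axis) and SER-generated embryos (y axis) for the 8 genes that passed the filter, over all 31 embryos (left) and 28 embryos (right). Points under the dashed line of equal SD are less variable in SER, 6 of 8 on the left and 3 of 8 on the right.

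The slope of each gene was taken on the log2 ratio of the zygotic to the maternal list, with group as covariate. Whether this ratio measures the progress of zygotic activation was not tested. A few abundant genes weigh heavily in its sums. In control-generated embryos Omt2a and Omt2b averaged 6050 and 8127 CPM, against 23798 CPM for the whole maternal list. Usp17lb averaged 345 CPM there, against 1269 CPM for the whole zygotic list. None of the 10 genes is in either list. With edgeR and adjustment over all genes, 3 of the 8 rose with the ratio, against 19.8% of the other genes, and 1 fell, against 14.5%. Tead4 rose by 0.98 on the log2 scale per unit of the log2 ratio (adjusted p = 0.0144), Klf4 by 0.71 (adjusted p = 0.0106) and Klf5 by 0.51 (adjusted p = 0.0888). Pou5f1 had a slope of -0.38 (edgeR, adjusted p = 0.0561). Sox2 (0.43), Tfap2c (0.20), Carm1 (0.14) and Klf17 (-0.09) had slopes that did not pass, with adjusted p between 0.349 and 0.660 by edgeR, although Tfap2c passed with library size as a further covariate (0.41, adjusted p = 0.0535).

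These slopes rested on control replicate 4 and SER replicate 15, the embryos with the most extreme ratio. Control replicate 4 had 0 counts of Tead4 and of Sox2, 2 of Klf4 and 1 of Klf5, but 1213 of Klf17 and 678 of Pou5f1. SER replicate 15 likewise had 0 counts of Tead4, 7 of Sox2, 10 of Klf5 and 22 of Klf4, but 5523 of Klf17 and 3127 of Pou5f1. In both embryos, then, Klf17 and Pou5f1 were high while Tead4, Klf4 and Klf5 were low or at 0. Without these 2 embryos none of the 8 genes passed, and only 66 of 8461 genes did. The slope of Tead4 was then 0.49 (edgeR, adjusted p = 0.437), that of Klf4 0.30 (adjusted p = 0.601), that of Klf5 0.02 (adjusted p = 0.982) and that of Pou5f1 -0.21 (adjusted p = 0.776). Leaving out control replicate 4 alone took Tead4 to 0.75 (edgeR, adjusted p = 0.119), Klf4 to 0.49 (adjusted p = 0.144) and Klf5 to 0.24 (adjusted p = 0.507).

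As a correlation of log2 CPM with the log2 ratio, 8 such relations were computed, with 2-sided permutation tests of 100000 resamples. These correlations and their tests took no account of group. Tead4 had a Pearson's r of 0.75 (p = 2.0e-05) and a Spearman's rho of 0.49 (p = 0.00543, n = 31), and r was 0.46 (p = 0.00992, n = 29) without the 2 embryos farthest from the median. Klf4 had r = 0.58 (permutation p = 0.00196) and rho = 0.28 (p = 0.120), and without the 2 embryos r was 0.10 (p = 0.601). Klf17 behaved otherwise, since its r over 31 embryos was 0.06 (permutation p = 0.741) with rho = 0.36 (p = 0.0457), and without the 2 embryos r was 0.65 (p = 6.0e-05). The ratio, Klf17 and Tead4 all had higher medians in SER-generated embryos. With group in the edgeR fit and without the 2 embryos, the slope of Klf17 was 0.35 (adjusted p = 0.186). That of Tead4 was then 0.49 (edgeR, adjusted p = 0.437). In control-generated embryos alone Tead4 had a slope of 1.20 (edgeR, adjusted p = 0.00698) and Klf4 of 0.87 (adjusted p = 0.0133), while in SER-generated embryos alone no slope of the 8 passed. The difference of slopes between the groups had an adjusted p of 1 for each of the 8 by edgeR, so no difference between groups was shown.

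**Figure D4:**
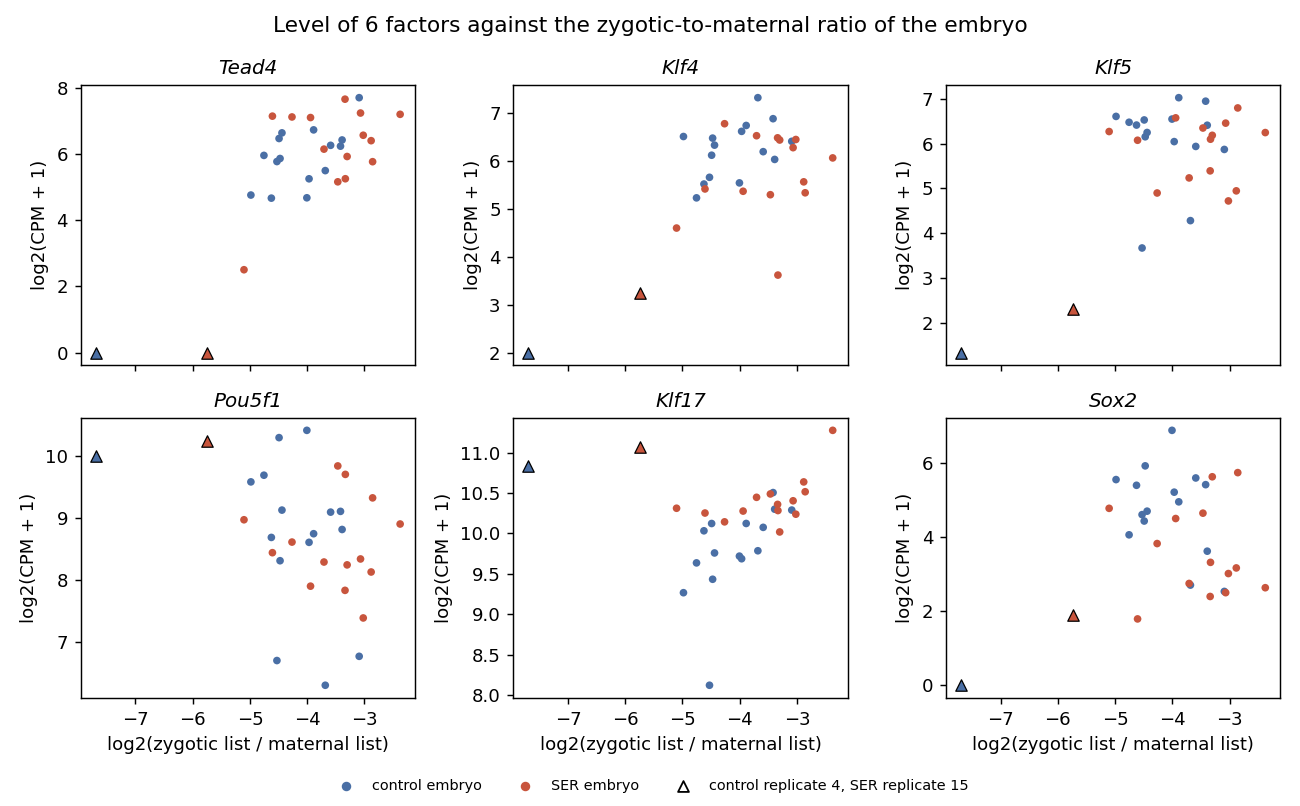
Level of 6 of the genes as log2(CPM + 1) against the log2 ratio of the summed zygotic to the summed maternal list, 1 point per embryo (control blue, SER red). Triangles are control replicate 4 and SER replicate 15 at ratios of -7.69 and -5.74, where Tead4 is at 0 and Klf17 is high.

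Among themselves the factors did not vary as 1 block. The correlations below are over 31 embryos after the group means were removed, and are descriptions, since the embryos share library depth and the contrast of control replicate 4 and SER replicate 15 with the others. Tead4 and Klf4 had r = 0.77 (rho = 0.53), and 0.49 without these 2 embryos. Pou5f1 ran against Klf4 with r = -0.59 (rho = -0.56), and -0.49 without the 2 embryos. Klf5 and Tead4 changed sign, from r = 0.58 to -0.17 without them, while Pou5f1 and Klf5 went from 0.02 to 0.66. Klf5 and Carm1 had r = 0.48 over all embryos and 0.72 over 29.

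The genes most like each factor across embryos were named by Pearson's r of log2 CPM over the 31 embryos with group means removed. They are the highest among all tested genes, so their r are selected values. Values without control replicate 4 and SER replicate 15 come from the same embryos that selected the genes. Shared batch or depth was not tested. For Pou5f1 the genes were Cox10 (0.94), Rad23b (0.91) and Os9 (0.90), with 0.93, 0.89 and 0.88 without the 2 embryos. For Carm1 they included Ankrd52 (0.86) and Fbrs (0.86), at 0.87 and 0.88 without the 2 embryos. Tead4 was most like Rpa2 (0.93), Impdh2 (0.92) and Surf6 (0.92), which fell to 0.79, 0.84 and 0.75. Klf4 was most like Cd320 (0.90), Hsd17b14 (0.89) and Nudt4 (0.88), and Klf5 like B4galt3 (0.89), Arid5a (0.87) and Irf3 (0.86). Without the 2 embryos the r of Klf4 with Cd320 was 0.76, and that of Klf5 with Irf3 was 0.58. Tfap2c went with Ecsit (0.83), Pole (0.81) and Mtor (0.81), and Klf17 with Dhx57 (0.77), Ubap2l (0.75) and Trp53bp1 (0.74). Sox2 had the weakest partners, Hnrnpul2 (0.69), Smarcd2 (0.67) and Cdkn2c (0.67). The lowest r without the 2 embryos was 0.65 for Tfap2c (Pole), 0.59 for Klf17 (Trp53bp1) and 0.50 for Sox2 (Smarcd2).

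Related genes outside the 10 were read from the same fit. None of the genes in the 7 lists that follow reached an adjusted p under 0.1 by edgeR in the filtered fit. Of all 8571 tested genes, 4515 were estimated higher in SER and 4056 lower. Of 23 other genes of the pluripotency network 18 were tested, 8 estimated higher and 10 lower, and the median log2 fold change was -0.04. The RNA-binding protein Lin28a had 86.7 ± 39.7 CPM (SD, n = 16) in control- against 118 ± 43.2 CPM (SD, n = 15) in SER-generated embryos, with a log2 fold change of 0.43. Sall4, a zinc finger partner of OCT4, had 0.33, Tbx3 -0.50 and the Akt coactivator Tcl1 -0.33. Tcl1 had 5118 ± 1604 CPM (SD, n = 16) in control- against 4203 ± 2615 CPM (SD, n = 15) in SER-generated embryos. Limma voom called 2 of the 18, against 9.89% of all genes, Tcl1 (adjusted p = 0.0415) and Dppa3 (adjusted p = 0.0874), the latter a maternal chromatin protein named after its values were seen.

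Of 14 other Krüppel-like factors 8 were tested, 4 with a higher and 4 with a lower estimate, and the median was -0.05. Klf6 had the lowest p among them, with 15.9 ± 12.9 CPM (SD, n = 16) in control- against 6.16 ± 6.55 CPM (SD, n = 15) in SER-generated embryos, a log2 fold change of -1.39 (edgeR, adjusted p = 0.836). Klf9 (0.45), Klf16 (0.14) and Klf13 (-0.19) were closer to 0 relative to their errors. In the fit of all genes with a count, Klf14 (-3.01) and Klf15 (-3.48), both too rarely counted to pass the filter, had an adjusted p under 0.1 by edgeR.

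Of 19 relatives of Sox2 and Pou5f1 in the Sox and Pou families 4 were tested, with 3 higher estimates, 1 lower and a median of 0.28. Pou6f1 had a log2 fold change of 0.80 and Sox15 of 0.42, and Pou2f1, the ubiquitous OCT1, of -0.31. Limma voom called 1 of the 4, Pou6f1 (adjusted p = 0.0941), against 9.89% of all genes.

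Among 20 genes of Hippo signaling and the other Tead factors, 15 were tested, 10 with a higher and 5 with a lower estimate and a median of 0.21. The kinase Lats1, which inhibits Yap1, had 7.79 ± 6.54 CPM (SD, n = 16) in control- against 15.8 ± 11.9 CPM (SD, n = 15) in SER-generated embryos, a log2 fold change of 0.97 (edgeR, adjusted p = 0.869). The upstream kinase Taok1 had 0.35. Yap1, the coactivator of Tead4, had 916 ± 405 CPM (SD, n = 16) in control- against 731 ± 171 CPM (SD, n = 15) in SER-generated embryos, a log2 fold change of -0.35. Limma voom called 1 of the 15 tested genes, Yap1 (adjusted p = 0.0670), against 9.89% of all genes. Vgll4, a competitor of Yap1 for Tead factors, had -0.71.

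Of 18 trophectoderm genes 4 passed the filter, all 4 with lower estimates and a median of -0.24, among them Tfap2b (-0.91) and the sodium pump subunit Atp1b1 (-0.29). Of 9 genes of the primitive endoderm 3 passed, among them Gata4 (0.23) and Dab2 (0.01), with a median of 0.01. In the fit of all genes with a count, Sox7 (-2.26) and Foxa2 (-3.13) of this list had an adjusted p under 0.1 by edgeR. With Klf14 and Klf15 they were the 4 genes of the 7 lists called there. All 4 were lower, as were 363 of the 504 genes called in that fit, and all 4 were too rarely counted to pass the filter. That fit, which called 2.83% of genes, also called markers counted in few embryos. These were Inhba (-4.23, in 10 embryos) and Inha (-4.80, in 6) of the cumulus list. Of the sperm list they were Smcp (3.87) and Odf1 (3.15), each in 3 embryos.

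The list of arginine methyltransferases and Carm1 partners had 16 of 18 genes tested, 13 with a higher and 3 with a lower estimate. Of all 8571 tested genes 4515 had a higher estimate. The median of the list was 0.24 against 0.02 for all genes, and no set test was run. Smarcc1, a subunit of the BAF chromatin remodeler, which Carm1 methylates, had 134 ± 53.0 CPM (SD, n = 16) in control- against 198 ± 90.8 CPM (SD, n = 15) in SER-generated embryos, a log2 fold change of 0.54 (edgeR, adjusted p = 0.810). The acetyltransferase Ep300 had 0.43. The methyltransferase Prmt2 had 236 ± 89.8 CPM (SD, n = 16) in control- against 180 ± 95.8 CPM (SD, n = 15) in SER-generated embryos, a log2 fold change of -0.40, and the noncoding RNA Neat1 was also estimated lower. Limma voom, which called 9.89% of all genes, called 3 of the 16, Smarcc1 (adjusted p = 0.0211), Prmt2 (adjusted p = 0.0168) and Ndufaf7 (adjusted p = 0.0962), the last of which was named after its values were seen.

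The marker lists behind the ratio were read alike. Of 23 tested oocyte transcripts 18 were estimated lower in SER, with a median of -0.31, against 4056 of all 8571 tested genes. Of 20 tested zygotic genes 14 were estimated higher, with a median of 0.13, against 4515 of all 8571. None of either list had an adjusted p under 0.1 by edgeR. Bcl2l10, an oocyte member of the BCL2 family, had the lowest p of the maternal list, with a log2 fold change of -1.10 (edgeR, adjusted p = 0.501), followed by Omt2a with -0.71, while Nlrp5 had 0.64 and Zp2 0.38. Zscan4c had 0.79, Zscan4d 0.49, Arg2 -0.48 and Tcstv1 -0.73. Limma voom called 5 of the 23 oocyte transcripts, all lower, and 0 of the 20 zygotic genes, against 9.89% of all genes.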

How the data were processed

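RNA of single 2-cell embryos was sequenced by the authors with the Smart-seq3 protocol. They aligned 5′ reads with a molecular identifier and internal reads with STAR, removed duplicates, merged both and counted reads per gene with FeatureCounts on mm10, per the labels. The deposited values are raw counts per gene and embryo. Versions, annotation and strand setting are not given in the sources used here. The study describes several batches, with embryos of both groups, and corrected for batch effects before its own DESeq2 test. The batch of each embryo is not in the labels or the table, so no batch term or within-batch value could be given. The tests here therefore carry no batch correction, unlike that of the study.

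SER- and control-generated embryos (15 and 16) were compared in R 4.3.3 with edgeR 4.0.16 (quasi-likelihood test, TMM, filterByExpr at 10 counts and a total of 15, no covariate), with an adjusted p under 0.1 as threshold. DESeq2 1.42.0 and limma 3.58.1 voom were alternatives, with other filters, size factors, library size, thinning to 532945 counts and leaving out embryos. The scripts were tested on simulated data. CPM used the total count, the SD and correlations used log2 CPM with a prior count of 2, and intervals used the SE. GENCODE vM21 on GRCm38 gave exon lengths and positions. Named were all 10 genes, the 2 higher and 2 lower genes of smallest p per list, and 3 most alike genes per factor, of which some are not reported here. The genes and lists were chosen with earlier results of these data known. Whether embryos shared a male or a dish is not in the labels, so p-values measure only the spread between these embryos. A count of 0 leaves a floor of 3 counts, for counting error only. No 2 columns were identical.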

Additional observations from a re-analysis of the deposited data

How the results depend on the processing

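Among the alternatives of the group comparison that gave an adjusted p, limma voom alone called any of the 10 genes, Klf17 (0.60) and Sox2 (-1.60), and the cause was not tested. Nanog and Cdx2 had no value under the stricter filter and no adjusted p by DESeq2. With each embryo left out in turn, edgeR called 0 of the genes that passed the filter and none of the 10. Without the 3 embryos of low correlation edgeR called none of the 10 either. Besides Klf17 and Sox2, given above, the estimates were then -0.44 (Pou5f1), -0.26 (Nanog), -0.47 (Klf4) and -0.35 (Klf5). Those of the others were 1.71 (Cdx2), 0.40 (Tead4), 0.03 (Tfap2c) and 0.29 (Carm1). The count of genes past the threshold was 504 without the filter, where 17803 genes were tested (2.83%), 49 by DESeq2 (0.572%) and 848 by limma voom (9.89%). Over the 7 lists the count was 4 without the filter and 7 by limma voom. In the filtered fit these lists had 18, 8, 15, 4, 3, 16 and 4 genes tested. The log2 fold change of Cdx2 turned to -0.57 by DESeq2, -0.73 by limma voom and -2.06 with the replicate block and library size, and ran from -0.85 to 2.54 with embryos left out. With the replicate block, the same number being taken as a pair, Tfap2c turned to -0.13, and with library size added to the replicate block Tfap2c turned to -0.17, Pou5f1 to 0.42 and Tead4 to -0.67. Same-numbered embryos showed no steady common deviation (15 pairs, r from -0.37 to 0.49, median 0.11, 8 of them over 0.1). Of 15 SER-generated embryos, 2 correlated best with their own number. No pairing by number was seen, but whether runs of numbers share a batch was not tested. The block called 0 genes. Tfap2c ran from -0.073 to 0.12 with embryos left out.

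The slopes on the zygotic-to-maternal ratio were less stable, and apart from the embryos left out the causes were not tested. Without the 2 embryos of extreme ratio none of the 8 passed, with -0.21 (Pou5f1), -0.14 (Sox2), 0.30 (Klf4), 0.017 (Klf5), 0.35 (Klf17) and 0.49 (Tead4). Without the 3 embryos of low correlation, chosen after seeing the data, none passed either, with -0.27, -0.17, 0.28, -0.039, 0.31 and 0.49 in that order, with Tfap2c at -0.022 and Carm1 at -0.010. Leaving out each embryo in turn, also chosen after seeing the data, gave -0.42 to -0.29 for Pou5f1, 0.49 to 0.81 for Klf4, 0.24 to 0.69 for Klf5, -0.14 to 0.12 for Klf17 and 0.75 to 1.18 for Tead4. Klf4 and Tead4 passed in 30 of 31 such fits, Pou5f1 in 28 and Klf5 in 24. In control-generated embryos alone Pou5f1 (-0.45) and Klf5 (0.66) did not pass, and in SER-generated embryos alone none passed, with slopes of -0.31 (Pou5f1), 0.53 (Klf4), 0.38 (Klf5), 0.013 (Klf17) and 0.72 (Tead4). On the maternal list alone, with its sign turned, Pou5f1 (-0.71), Klf4 (0.21) and Tead4 (0.96, edgeR, adjusted p = 0.147) no longer passed, while Tfap2c (0.71) and Carm1 (1.28) did. On the zygotic list alone Klf5 (0.23) and Tead4 (0.71, edgeR, adjusted p = 0.175) no longer passed, and Carm1 turned to -0.17. With the replicate block Pou5f1 (-0.32) no longer passed and Tfap2c (0.53, edgeR, adjusted p = 0.0438) did, as Tfap2c also did with library size (0.41, edgeR, adjusted p = 0.0535). Without the filter Klf5 (0.53) no longer passed. Depth limits Nanog and Cdx2, which had 66 and 47 reads in all.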
